A study of Mus musculus with 8 samples.

Results

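Astrocytes are the star-shaped glia of the brain, and 39 genes known as their markers or for the work they do were followed here. The members were taken by symbol from the deposited table, and all 39 were found among its 24344 distinct symbols. RNA had been sequenced from homogenates of the occipital cortex of C57BL/6J mice at postnatal day 35. One group of 4 libraries came from mice that went 48 h without food. The other group of 4 libraries came from mice fed ad libitum (called fed below). No genetic change is named for either group. The labels do not say how the mice were caged or whether animals were pooled, so p-values measure the spread between these libraries. In a homogenate, fewer cells of a type and less RNA per cell cannot be told apart.

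Astrocytes clear glutamate and potassium released by active neurons, move water at the endfeet that wrap blood vessels, and share ions and metabolites through gap junctions. Glutamate taken up by the transporters GLT-1 and GLAST is turned into glutamine by glutamine synthetase and handed back to neurons. Many of their genes are used by other cells of the cortex too: Cst3 and Clu are known from microglia and neurons, Glul from oligodendrocytes, and Id3 from blood vessels.

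Levels are FPKM, in which fragments are divided by transcript length and by library size, so they can be compared between genes. No source gives the depth. The steps between low values put it at about 16600000 to 21400000 fragments in a library. A transcript of 2 kb at 1 FPKM would then have been seen 33.2 to 42.8 times. FPKM totals ran from 253470.2 to 360010.3, and a microRNA gene was the most abundant in 5 of the 8 libraries, at 17728.7 to 40326.4 FPKM in fed replicates 2 and 3 and fasted replicate 2 and at 1888.5 and 1599.9 FPKM in fed replicates 1 and 4. Fed replicate 3 held both Xist (32.2 FPKM) and Y-linked transcripts (a sum of 20.2 FPKM), while the other libraries held one or the other. Y-linked transcripts marked fed replicate 1 and fasted replicates 1 and 3, and Xist marked replicates 2 and 4 of both groups. Sex was thus not balanced between the groups, and the fit has no term for it. The cortical excitatory marker Slc17a7 averaged 405.5 FPKM in fed libraries, and choroid plexus and ependyma markers summed to 1.83 to 4.98 FPKM per library.

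A few of the astrocyte genes changed strongly with fasting, in both directions, and 27 of the 39 did not pass the test. A gene was called when its Benjamini-Hochberg adjusted p, from limma on log2(FPKM + 1) over all tested genes, was under 0.05. All 39 members passed the filter of 1 FPKM in at least 4 libraries, and 12377 genes did so in all. Of the 39, 5 rose (Itih3, Gjb6, Agt, Fgfr3 and Hepacam) and 7 fell (Aqp4, Pla2g7, Chrdl1, Cldn10, Gfap, Gja1 and Slc4a4). Over all tested genes 9.56% rose and 16.3% fell, against 12.8% and 17.9% of the members, so the share of members called was near that of all genes. The groups did not overlap for 12 members, 30.8% of them, against 27.6% of all tested genes. Changes of at least 1.5-fold were called for 4 members, Itih3, Gjb6 and Agt upward and Aqp4 downward, 7.69% and 2.56% of the 39. Among all tested genes 0.719% rose and 0.816% fell by as much. The members were chosen with earlier results of these data known, so these shares are a description and were not tested. The median log2 change was -0.088 over the members and -0.024 over all tested genes, and 15 of the 39 had a change above 0.

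How libraries were scaled and paired changed the number of rises more than the number of falls. After median-ratio scaling 10 members rose and 7 fell (14.2% and 15.6% of all genes). With the replicate number as a block 10 rose and 9 fell (14.3% and 22.1% of all genes). Glul, Aldoc, Clu and Htra1 joined the rises in both of these fits. Without fed replicates 2 and 3 together, an alternative chosen after seeing the data, 4 rose and 2 fell (4.17% and 5.11% of all genes).

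**Figure D1:**
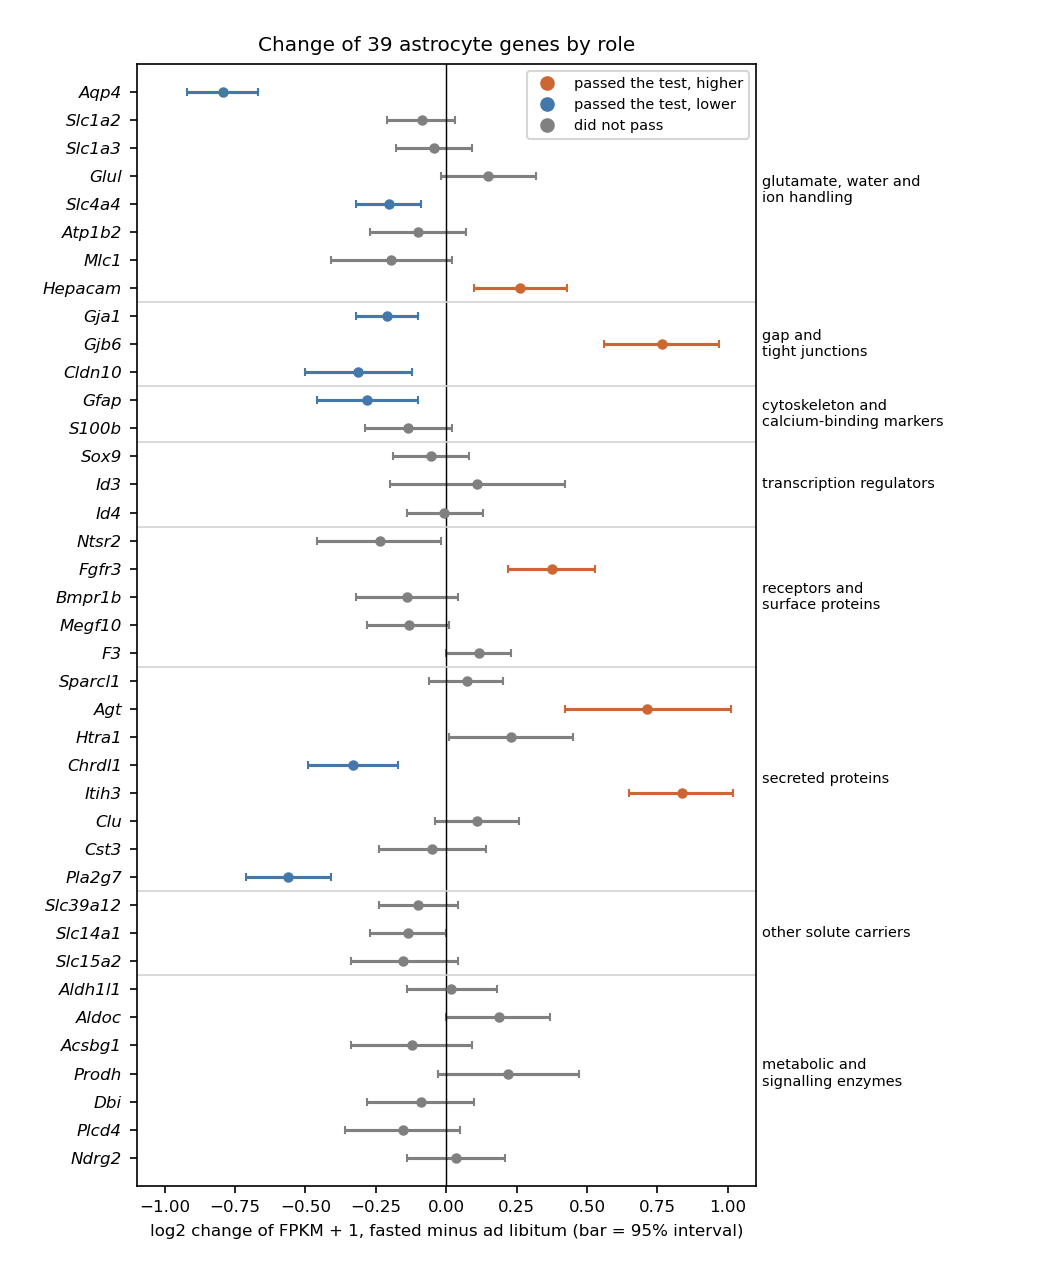
Log2 change of FPKM + 1 (horizontal axis, fasted minus ad libitum) for the 39 astrocyte genes in rows, ordered by role, with 95% intervals from limma and colour for the outcome of the test. The 5 rises and 7 falls are spread over several roles, and the transcription regulators, other solute carriers and enzymes hold none.

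**Figure D2:**
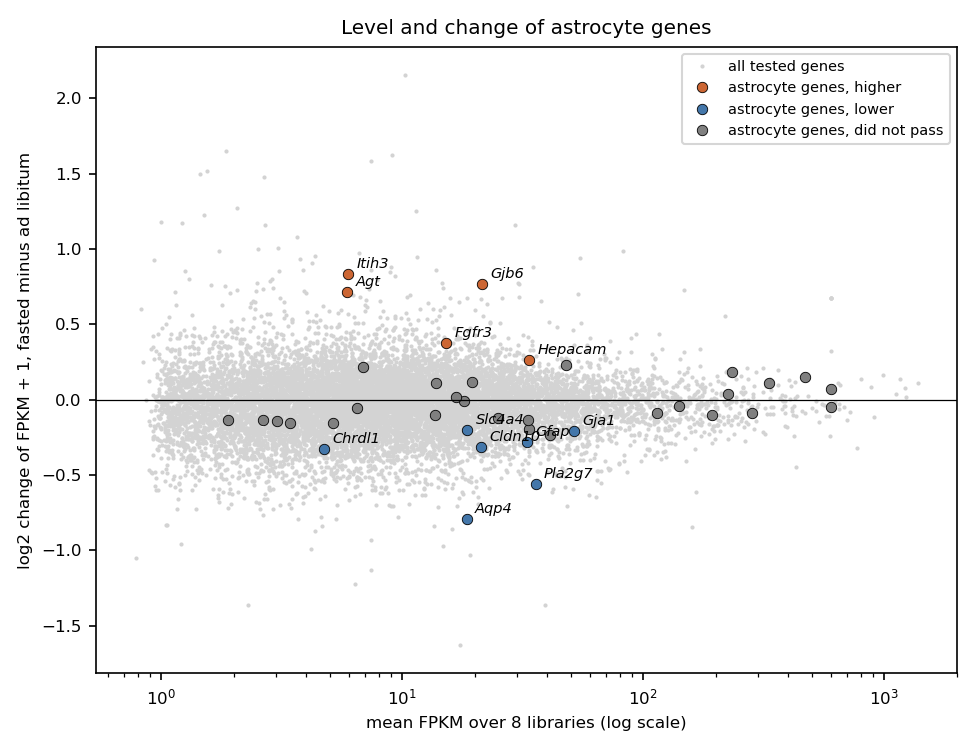
Log2 change of FPKM + 1 against mean FPKM over 8 libraries (log axis) for all 12377 tested genes in grey and the 39 astrocyte genes in colour. Itih3, Agt and Gjb6 lie at the upper edge and Aqp4 and Pla2g7 at the lower edge of the grey cloud.

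Among genes for water, ions and glutamate, 1 of 8 rose and 2 fell. Aqp4 (chromosome 18, 15389496 to 15410982, mm10), which encodes the water channel of the astrocyte endfoot, changed most. It stood at 25.1, 22.1, 24.3 and 23.6 FPKM in fed replicates 1 to 4, and at 13.3, 12.6, 14.4 and 12.9 FPKM in the fasted ones. Every fasted library lay far under every fed one, with little spread within either group. The means were 23.8 FPKM ± 1.29 (SD, n = 4) and 13.3 ± 0.786 (SD, n = 4), which on the log2 scale is -0.79 (SE 0.0581, limma adjusted p = 2.05e-05). It was the 15th largest of the 2015 falls, and it was called under each of the 20 other settings tried.

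Slc4a4 (chromosome 5, 88886818 to 89239653) encodes the sodium bicarbonate cotransporter NBCe1, which sets pH in and around astrocytes. Its fed values were 19.0, 20.3, 19.1 and 21.5 FPKM and its fasted values 16.9, 17.1, 17.5 and 17.4 FPKM. The groups did not overlap, and the fasted libraries were almost level. The fall was small, a log2 change of -0.20 (limma adjusted p = 0.0158). It was not called after equal-sum or quantile scaling (adjusted p = 0.0703 and 0.0627) or without fed replicates 2 and 3 together (0.0959), where settings ranged from 0.00242 to 0.0959.

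Hepacam and Mlc1 encode GlialCAM and MLC1, membrane partners at astrocyte contacts whose loss causes a leukodystrophy with cysts. Hepacam (chromosome 9, 37367351 to 37386575) was at 32.6, 31.5, 30.6 and 26.9 FPKM fed and 41.9, 35.5, 34.3 and 35.1 FPKM fasted. All fasted libraries were above all fed ones, and fasted replicate 1 was highest. It rose by 0.26 on the log2 scale (limma adjusted p = 0.0265), a call that ended without fed replicate 3 (0.0602), without fasted replicate 1 (0.0628) or without fed replicates 2 and 3 together (0.109), in a range from 0.00146 to 0.109. Mlc1 lay on the other side of 0, at 35.7 FPKM ± 3.33 fed and 31.2 ± 4.35 fasted (SD, n = 4 each). On the log2 scale the difference of -0.20 missed the threshold (limma adjusted p = 0.163) and was called lower with the replicate block (0.00798), with settings ranging up to 0.441.

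The partners of Aqp4 at the endfoot came from a list of 11 genes, of which 8 were tested, 0 rose and 3 fell. Kcnj10, which encodes the potassium channel Kir4.1, went from 36.3 FPKM ± 1.28 to 26.7 ± 1.15 (SD, n = 4 each), a log2 change of -0.43 (limma adjusted p = 3.02e-04). Dtna and Sgce, of the dystrophin-associated complex that holds Aqp4 in place, had log2 changes of -0.24 and -0.31. Dmd and Dag1, which encode dystrophin and dystroglycan, were at -0.01 and -0.05 and did not pass. Endfeet lie on blood vessels, and the summed level of mural cell markers was lower too. Their 9 genes summed to 49.97 to 59.5 FPKM in fed and 38.1 to 43.7 FPKM in fasted libraries. Of 7 tested, 2 were called lower (Rgs5 and Vtn) and 5 were not called, and 2 of the 7 had a change above 0. Over all tested genes 16.3% were called lower (22.1% lower and 14.3% higher with the replicate block). Endothelial markers summed to 65.9 to 79.1 and 57.4 to 69.9 FPKM, with 3 of 11 called lower and 0 higher (4 and 1 with the replicate block). The part of these cells in the astrocyte result was not tested.

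**Figure D3:**
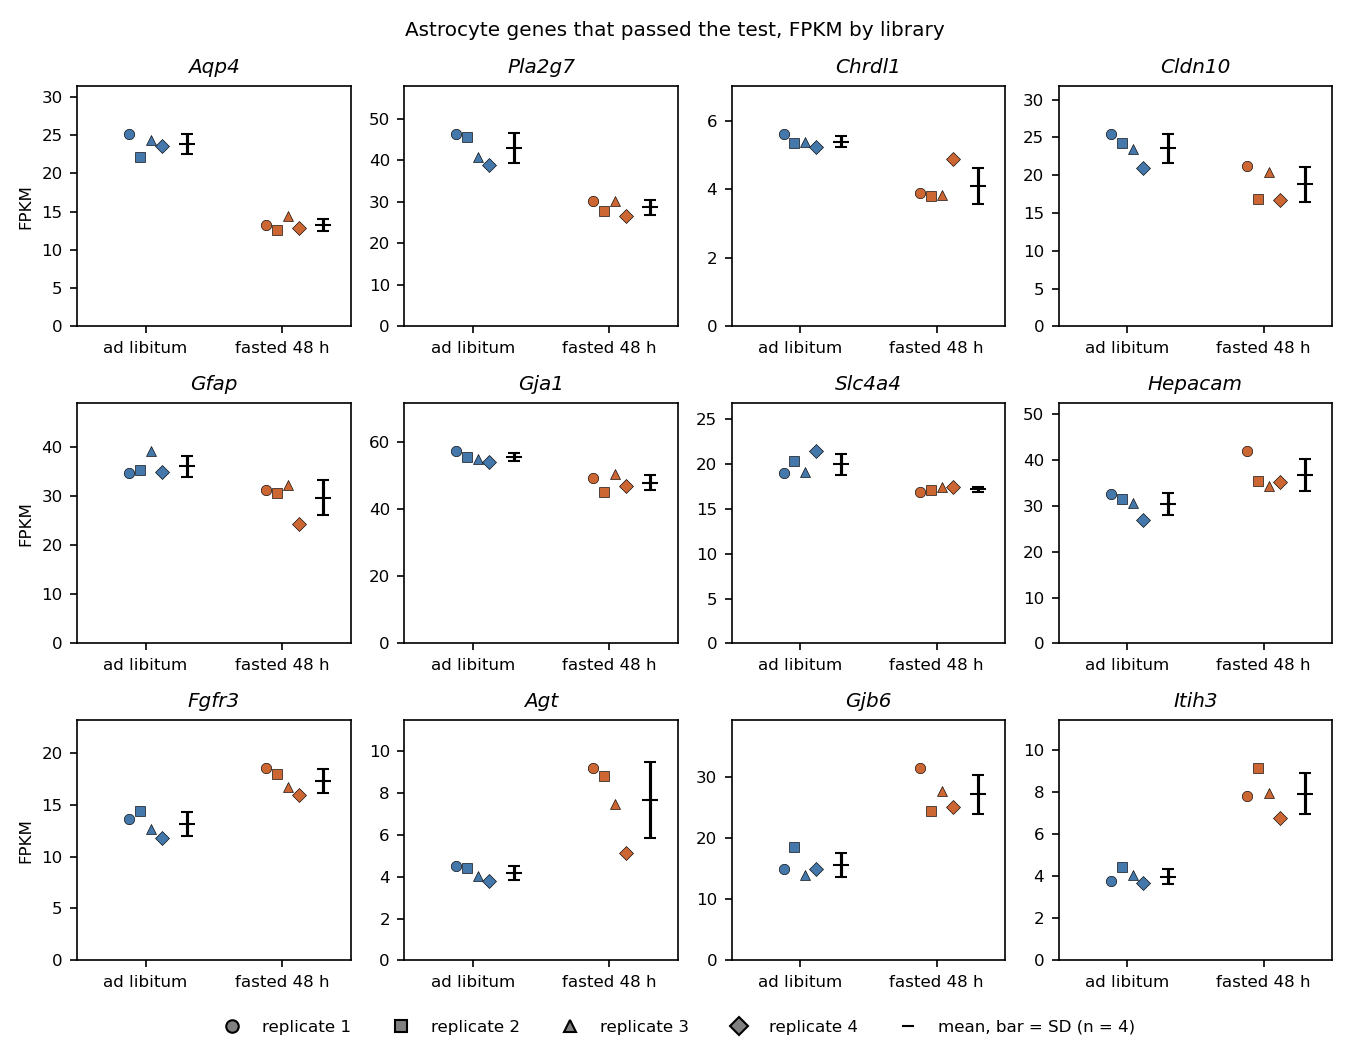
FPKM in each library for the 12 astrocyte genes that passed the test, ad libitum in blue and fasted in orange, a symbol per replicate number, with mean and SD (n = 4) beside the points and every axis starting at 0. The groups overlap in Cldn10 only, where fasted replicate 1 lies above fed replicate 4.

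The junction genes held 1 rise and 2 falls. Gjb6 (chromosome 14, 57123303 to 57133611) encodes connexin 30 and Gja1 (chromosome 10, 56377330 to 56402513) encodes connexin 43, the main gap junction proteins of astrocytes. Gjb6 was at 15.0, 18.5, 14.0 and 14.9 FPKM in fed libraries and at 31.5, 24.5, 27.8 and 25.1 FPKM in fasted ones. The lowest fasted library stood well above the highest fed one. The mean went from 15.6 FPKM ± 1.98 to 27.2 ± 3.19 (SD, n = 4 each), a rise of 0.77 on the log2 scale (SE 0.0937, limma adjusted p = 3.42e-04).

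Gja1 moved the opposite way and far less. It was at 57.4, 55.7, 55.1 and 54.2 FPKM fed and at 49.3, 45.3, 50.5 and 46.8 FPKM fasted. The fed libraries were the tightest of any member and lay above all fasted ones. The log2 change was -0.21 with SE 0.0514 (limma adjusted p = 0.0127). It was not called without fed replicates 2 and 3 together (0.111) or with offsets from median transcript lengths (0.498), in a range from 0.00344 to 0.498. With offsets from the longest transcript it was called. The log2 change was -0.197 with the median-length offsets and -0.174 with the longest-transcript offsets, so the fall itself remained in both.

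The ratio of Gjb6 to Gja1 within a library is free of any single scaling factor applied to that library. It was 0.262, 0.332, 0.254 and 0.275 in fed and 0.638, 0.540, 0.549 and 0.535 in fasted libraries. Each fasted library had a ratio above every fed library, with means of 0.28 ± 0.0352 and 0.566 ± 0.0487 (SD, n = 4 each). This ratio was chosen after the values were seen and is given without a test.

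**Figure D4:**
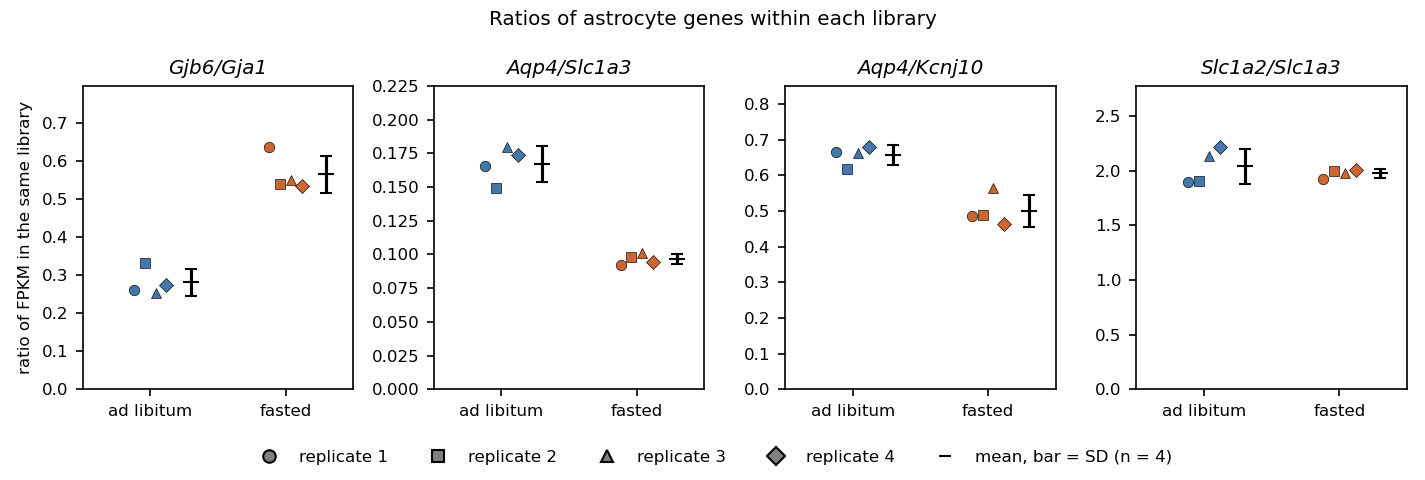
Ratio of FPKM of a pair of genes within the same library (vertical axes, from 0), by group, a symbol per replicate number, with mean and SD (n = 4). Gjb6/Gja1 is higher in each fasted library, Aqp4/Slc1a3 and Aqp4/Kcnj10 are lower in each, and Slc1a2/Slc1a3 overlaps, with means of 2.04 fed and 1.98 fasted.

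The promoters of the connexin pair are shown because these genes of one protein family moved in opposite directions. Each runs from 250 bases before to 30 bases after the RefSeq transcription start (GRCm38.p6), 5′ to 3′ on the gene's strand, Gjb6 at chr14:57133582-57133861 (minus strand) and Gja1 at chr10:56377050-56377329 (plus strand). Capitals are kept for the STAT motif TTCNNNGAA, searched on both strands, and neither stretch held it.
Gjb6: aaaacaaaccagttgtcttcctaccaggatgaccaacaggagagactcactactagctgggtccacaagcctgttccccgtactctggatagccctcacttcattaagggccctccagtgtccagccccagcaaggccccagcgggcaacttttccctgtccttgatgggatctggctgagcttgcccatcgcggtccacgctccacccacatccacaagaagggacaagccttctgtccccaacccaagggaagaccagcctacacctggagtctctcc
Gja1: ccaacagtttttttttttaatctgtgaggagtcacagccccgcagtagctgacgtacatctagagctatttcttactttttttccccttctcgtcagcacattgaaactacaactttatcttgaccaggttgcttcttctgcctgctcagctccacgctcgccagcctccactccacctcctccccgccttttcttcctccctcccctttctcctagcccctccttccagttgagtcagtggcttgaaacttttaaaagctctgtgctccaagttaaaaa

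Other connexins and pannexins were read from a list of 12 genes that also holds the pair. Of these 10 were tested, 2 rose and 5 fell, against 9.56% and 16.3% of all tested genes. Gjb2, the connexin 26 gene next to Gjb6 on chromosome 14 (57098600 to 57104702), went from 4.78 FPKM ± 0.724 to 3.06 ± 0.274 (SD, n = 4 each), a log2 change of -0.50 (limma adjusted p = 0.00276). The neighbours thus moved in opposite directions. Gjb1, which encodes connexin 32 on the oligodendrocyte side of junctions with astrocytes, had a log2 change of -0.58 (limma adjusted p = 0.00114).

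Cldn10 (chromosome 14, 118787908 to 118875489) encodes claudin 10, a tight junction protein used as an astrocyte marker. It was at 25.5, 24.3, 23.5 and 20.9 FPKM fed and at 21.2, 16.9, 20.4 and 16.7 FPKM fasted. Fasted replicate 1 was above fed replicate 4, so the groups overlapped. Its log2 change of -0.31 was called with limma adjusted p = 0.0209, and with 0.00179 with the replicate block. Leaving out any of fed replicates 1, 2 and 3 or fasted replicates 2 and 4 ended the call (0.0519 to 0.0644), as did offsets from median transcript lengths (0.0713) and leaving out fed replicates 2 and 3 together (0.154).

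The glutamate transporter genes did not pass the test, and their intervals were narrow. Slc1a2, which encodes GLT-1, was at 289, 283, 288 and 302 FPKM fed and at 277, 258, 284 and 274 FPKM fasted. Slc1a3, which encodes GLAST, was at 152, 148, 135 and 136 FPKM fed and at 144, 129, 143 and 136 FPKM fasted. Both overlapped between the groups. Their log2 changes were -0.09 (95% interval -0.21 to 0.03) and -0.04 (-0.18 to 0.09) and did not pass (limma adjusted p = 0.268 and 0.628). Slc1a2 passed in 1 setting, the replicate block with GC and length offsets (limma adjusted p = 0.0263, against up to 0.504 in the others).

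Glul, which encodes glutamine synthetase, was at 476, 474, 429 and 403 FPKM fed and at 547, 482, 493 and 455 FPKM fasted. The groups overlapped, and each fasted library was above the fed library of its number. Its log2 change of 0.15 (95% interval -0.02 to 0.32) did not pass as deposited (limma adjusted p = 0.179). It passed as higher with the replicate block (0.0232) and after median-ratio scaling (0.0246), where settings ranged from 0.00181 to 0.381.

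Partners in the glutamate and glutamine cycle were read from 15 genes, of which 14 were tested, 1 rose and 3 fell. Slc38a3, which encodes the glutamine exporter SNAT3 of astrocytes, went from 18.3 FPKM ± 1.94 to 11.8 ± 0.914 (SD, n = 4 each), a log2 change of -0.59 (limma adjusted p = 5.89e-04). Slc38a5, for the related carrier SNAT5, was at 1.63 FPKM fed and 0.479 FPKM fasted. It is 1 of the 3 falls but passed the filter through the fed libraries alone, so a difference was built in. The amino acid carrier gene Slc38a2 rose by 0.26, and the neuronal vesicular transporter gene Slc17a6 was at -0.24. With the replicate block 1 rose and 5 fell, against 14.3% and 22.1% of all tested genes (9.56% and 16.3% in the main fit).

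Atp1b2 encodes the beta 2 subunit of the sodium-potassium pump, which restores the ion gradients that drive glutamate uptake. Atp1b2 was at 199 FPKM ± 11.9 fed and 186 ± 19.1 fasted (SD, n = 4 each), which is -0.10 on the log2 scale and missed the threshold (limma adjusted p = 0.378).

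Of the classical identity markers Gfap fell, and S100b, Aldh1l1 and Sox9 did not pass. Gfap (chromosome 11, 102887336 to 102900912) encodes the intermediate filament protein that marks astrocytes and rises when they react to injury. It was at 34.7, 35.4, 39.1 and 34.98 FPKM fed and at 31.2, 30.6, 32.2 and 24.4 FPKM fasted. All fasted libraries were under all fed ones, with fed replicate 3 highest and fasted replicate 4 lowest. The log2 change was -0.28 with SE 0.0822 (limma adjusted p = 0.0273). The call ended without fed replicate 2 (0.0523), without fed replicate 3 (0.0861), without both (0.197) or with no filter on low genes (0.0515), in a range from 0.00483 to 0.197.

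S100b, for a calcium-binding protein, was at 37.4, 37.2, 33.5 and 31.4 FPKM fed and at 32.4, 28.4, 33.1 and 32.6 FPKM fasted. Aldh1l1, for the folate enzyme widely used to mark all astrocytes, was at 18.2, 17.7, 15.7 and 14.8 FPKM fed and at 18.5, 15.8, 16.6 and 16.2 FPKM fasted. Its exons share 499 bases with Gm15756 on the opposite strand, a gene not in the table. Sox9, for the transcription factor that maintains astrocyte identity, was at 6.73, 6.86, 6.39 and 6.64 FPKM fed and at 6.10, 7.07, 6.40 and 5.94 FPKM fasted. In these markers fed and fasted libraries overlapped. The log2 changes were -0.14 (95% interval -0.29 to 0.02), 0.02 (-0.14 to 0.18) and -0.06 (-0.19 to 0.08), with limma adjusted p = 0.176, 0.879 and 0.531. S100b passed without fed replicate 4 (0.0485, with other settings up to 0.492) and in no other setting, and the sign of the Aldh1l1 change flipped when fed replicate 3, fed replicate 4 or fasted replicate 1 was left out.

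Id3 and Id4 encode inhibitors of helix-loop-helix transcription factors that act downstream of bone morphogenetic proteins and hold cells in the glial lineage. Id4 was at 18.1 FPKM ± 0.779 fed and 18.1 ± 1.39 fasted, and Id3 at 13.3 ± 2.76 and 14.4 ± 2.42 (SD, n = 4 each). Neither passed, and the sign of the Id4 change of -0.01 flipped with each other scaling. Id3 had the widest spread of all members in fed libraries, from 11.2 to 17.1 FPKM.

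Genes known to rise in reactive astrocytes were read from a list of 40, of which only 19 were tested and 21 were too low. Of the 19, 4 rose and 2 fell (5 and 3 with the replicate block). The shares of all tested genes were 9.56% and 16.3% (14.3% and 22.1% with the block). Ugt1a6a, for a glucuronosyl transferase whose gene shares exons with others of its cluster, was at 0.333 FPKM fed and 1.53 FPKM fasted. It is 1 of the 4 rises but passed the filter through the fasted libraries alone, so a difference was built in. The serpin gene Serpina3n rose by 0.60, from 1.74 FPKM ± 0.202 to 3.16 ± 0.404 (SD, n = 4 each), and the ceruloplasmin gene Cp rose by 0.33. S1pr3, for a sphingosine phosphate receptor, had a log2 change of -0.37. Lcn2, Timp1 and C3, often used as marks of reactivity, were among those too low to test.

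Secreted proteins held the largest rise of the 39 and a large fall, with 2 of 8 genes higher and 2 lower. Itih3 (chromosome 14, 30908572 to 30923760) encodes a heavy chain of the inter-alpha-trypsin inhibitor, which binds hyaluronan in the matrix. It was at 3.76, 4.45, 4.06 and 3.68 FPKM fed and at 7.83, 9.15, 7.94 and 6.78 FPKM fasted. Every fasted library was above every fed library, and the mean went up 1.99 times, from 3.99 FPKM ± 0.350 to 7.93 ± 0.969 (SD, n = 4 each). The log2 change was 0.84 with SE 0.0831 (limma adjusted p = 1.14e-04), the 31st largest of the 1183 rises.

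Agt (chromosome 8, 124556534 to 124569706) encodes angiotensinogen, the precursor of angiotensin, made in the brain chiefly by astrocytes. It was at 4.53, 4.40, 4.06 and 3.80 FPKM fed and at 9.20, 8.82, 7.47 and 5.15 FPKM fasted. All fasted libraries were higher, but they were spread more widely than those of any other member, with replicate 4 lowest in both groups. Agt rose by 0.71 on the log2 scale with SE 0.134 (limma adjusted p = 0.00335), and its adjusted p over all settings ran from 1.62e-04 to 0.0415.

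Pla2g7 (chromosome 17, 43568098 to 43612201) encodes the secreted phospholipase that breaks down platelet-activating factor. It was at 46.3, 45.6, 40.8 and 38.8 FPKM fed and at 30.2, 27.9, 30.2 and 26.5 FPKM fasted. The groups were clearly apart. The log2 change was -0.56 with SE 0.0692 (limma adjusted p = 3.62e-04), called under each setting. Its exons overlap those of 1700071M16Rik on the opposite strand over 319 bases, a gene with a mean of 0.389 FPKM.

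Chrdl1 (chromosome X, 143285674 to 143394262) encodes chordin-like 1, an astrocyte factor that matures synapses by way of AMPA receptors and also binds bone morphogenetic proteins. It was at 5.62, 5.37, 5.39 and 5.24 FPKM fed and at 3.89, 3.81, 3.85 and 4.90 FPKM fasted. The fasted libraries lay under the fed ones, but fasted replicate 4 was close to them. The log2 change was -0.33 (limma adjusted p = 0.00775), and adjusted p = 0.0708 without fed replicates 2 and 3 together, in a range from 0.00164 to 0.0708. The gene is X-linked. Xist was high in replicates 2 and 4 of both groups and also present in fed replicate 3, but not in fasted replicate 3. The part of sex in the Chrdl1 fall was not tested.

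The other 4 secreted proteins did not pass, and 3 of them were among the 5 most abundant members. Cst3, for the protease inhibitor cystatin C, had the highest fed mean of the 39 and stood at 616 FPKM ± 70.2 fed and 593 ± 41.1 fasted (SD, n = 4 each). Sparcl1, for hevin, which helps synapses form, had the highest fasted mean and was at 587 ± 26.2 and 618 ± 19.0. Clu, for the chaperone and lipid carrier clusterin, was at 320 ± 20.8 and 346 ± 20.5, and Htra1, for a serine protease, at 43.8 ± 5.19 and 51.6 ± 6.85 (SD, n = 4 each). Clu and Htra1 had log2 changes of 0.11 and 0.23 (limma adjusted p = 0.257 and 0.116) and passed as higher with the replicate block (0.0454 and 0.0189) and after median-ratio scaling (0.0360 and 0.0327), with settings up to 0.454 and 0.274. Sparcl1 passed in 1 setting, the replicate block with GC and length offsets (0.0234, against up to 0.669).

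The promoters of Agt and Gfap are shown because each is a gene known to be induced through STAT3 in other settings, each held the STAT motif TTCNNNGAA, and here they moved in opposite directions. The window is that used for the connexins (RefSeq starts, GRCm38.p6), Agt at chr8:124569677-124569956 and Gfap at chr11:102897171-102897450, both on the minus strand, and capitals mark the match.
Agt: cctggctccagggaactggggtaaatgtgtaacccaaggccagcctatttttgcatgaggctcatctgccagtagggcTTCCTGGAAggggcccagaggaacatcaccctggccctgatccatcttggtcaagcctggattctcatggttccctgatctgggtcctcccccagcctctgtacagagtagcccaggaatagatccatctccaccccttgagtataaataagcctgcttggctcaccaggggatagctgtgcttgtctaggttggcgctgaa
Gfap: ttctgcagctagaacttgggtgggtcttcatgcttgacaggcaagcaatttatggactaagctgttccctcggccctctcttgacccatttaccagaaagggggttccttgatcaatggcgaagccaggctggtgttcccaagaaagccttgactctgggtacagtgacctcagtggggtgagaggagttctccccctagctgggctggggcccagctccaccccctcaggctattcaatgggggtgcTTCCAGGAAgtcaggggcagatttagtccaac

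Promoters of 300 bases were found for 31 members (41 windows, some genes having several starts), and 8 members had none in the table. On either strand, 8 of the 41 windows (19.5%) held TTCNNNGAA, against 8.3% of all 32851 promoters. The members were Agt, which rose, Gfap and Pla2g7, which fell, and Acsbg1, Aldoc, Ntsr2, Slc1a3 and Prodh, which did not pass. The motif thus stood in genes of each outcome. The SOX motif ACAAAGG was in 5 windows (12.2%, against 5.88% of all promoters). By gene these were 3 of the 31 members, Hepacam, Plcd4 and Bmpr1b. Bmpr1b counted more than once, through several starts whose windows partly overlap. The other SOX form ACAATGG, the NFI palindrome and the glucocorticoid receptor palindrome were in 0 of the 41 windows, against 3.66%, 0.0365% and 0.475% of all promoters. The short E-box CANNTG was in 30 windows (73.2%, against 72.3% of all promoters). These matches describe the letters in the windows and no binding was measured.

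Among receptors and surface proteins 1 of 5 rose. Fgfr3 (chromosome 5, 33721674 to 33737068) encodes a fibroblast growth factor receptor typical of astrocytes. It was at 13.6, 14.4, 12.7 and 11.7 FPKM fed and at 18.5, 17.9, 16.7 and 16.0 FPKM fasted. The groups did not overlap, and replicate 4 was lowest in both. It rose by 0.38 on the log2 scale with SE 0.0692 (limma adjusted p = 0.00302), called under each setting. Its exons share 998 bases with G630022F23Rik on the opposite strand, a gene not in the table, so reads from the pair could not be told apart without strand.

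Of 15 other genes of fibroblast growth factor signalling 13 were tested, and 2 fell and 0 rose. Fgfrl1, for a receptor that lacks the kinase domain, and Etv4, for a transcription factor induced by the pathway, had log2 changes of -0.51 and -0.52 (limma adjusted p = 0.00229 and 0.00114). With the replicate block 1 rose and 3 fell, against 14.3% and 22.1% of all tested genes (9.56% and 16.3% in the main fit).

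Ntsr2, for a neurotensin receptor of astrocytes, was at 44.4 FPKM ± 5.003 fed and 37.6 ± 5.04 fasted (SD, n = 4 each). Its log2 change of -0.24 did not pass (limma adjusted p = 0.104). It passed as lower with the replicate block (0.00913), after equal-sum scaling (0.0287), without fed replicate 4 (0.0225) and without fasted replicate 1 (0.0390), in a range from 0.00913 to 0.397. Megf10, for a receptor by which astrocytes engulf synapses, and Bmpr1b, for a bone morphogenetic protein receptor, were low, at 2.81 and 3.22 FPKM fed, with log2 changes of -0.13 and -0.14 that did not pass. F3, for tissue factor, which starts coagulation, was at 18.7 FPKM ± 0.712 fed and 20.4 ± 0.978 fasted and passed as higher after median-ratio scaling (limma adjusted p = 0.0332, and 0.122 as deposited, in a range from 0.00793 to 0.251).

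Bone morphogenetic proteins act through Bmpr1b on the Id genes. Of 21 other genes of this axis 18 were tested, 5 rose and 2 fell. Id1, Smad1 and Smad9 were among the rises. Hes1, for a repressor downstream of Notch, rose by 0.37, and Chrd, for the ligand antagonist chordin, by 0.33, while the receptor gene Acvr1 and the ligand gene Bmp7 had log2 changes of -0.26 and -0.29. With the replicate block 6 rose and 4 fell, against 14.3% and 22.1% of all tested genes (9.56% and 16.3% in the main fit).

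The 3 remaining solute carriers had lower means in fasted cortex and did not pass. Slc14a1, the urea transporter gene, was the lowest of the 39, at 2.04 FPKM ± 0.0512 and 1.76 ± 0.138 (SD, n = 4 each). Its groups did not overlap, and its log2 change of -0.14 had limma adjusted p = 0.129. Slc39a12, for the zinc importer ZIP12, and Slc15a2, for the peptide transporter PEPT2, had log2 changes of -0.10 and -0.15 (limma adjusted p = 0.268 and 0.212).

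None of the 7 enzymes and signalling genes passed as deposited. Aldoc, for the brain form of aldolase in glycolysis, was at 219 FPKM ± 25.0 fed and 248 ± 16.0 fasted (SD, n = 4 each), and Prodh, for proline dehydrogenase, at 6.27 ± 0.960 and 7.46 ± 1.20. They had log2 changes of 0.19 and 0.22 (limma adjusted p = 0.128 and 0.175), and each fasted library was above the fed library of its number. With the replicate block both passed as higher (0.0162 and 0.0120), with settings up to 0.273 and 0.398. Ndrg2, for a stress-linked protein of the hydrolase fold, was at 222 and 227 FPKM, Dbi, for the acyl-CoA-binding protein, at 118 and 110 FPKM, and Acsbg1, for an acyl-CoA synthetase, at 26.3 and 23.9 FPKM in fed and fasted means. Plcd4, for a phospholipase C, was at 3.65 and 3.17 FPKM. It shares 2101 exon bases with Zfp142 on the opposite strand, which had a mean of 5.19 FPKM, so its level is uncertain.

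Astrocyte genes outside the 39 were read from a list of 57, of which 8 rose and 22 fell (9 and 28 with the replicate block). Of all tested genes 9.56% rose and 16.3% fell (14.3% and 22.1% with the block). The median log2 change was -0.139 over the list and -0.024 over all tested genes. That list was written with earlier results known and holds genes known to have moved, so its counts are a description. Etnppl rose and Fabp7 fell by the widest margins, with log2 changes of 2.15 and -1.63. Slc7a11, which encodes the cystine-glutamate exchanger, went from 6.92 FPKM ± 0.867 to 3.86 ± 0.250, and Ednrb, for the endothelin receptor B, from 10.5 ± 0.408 to 6.68 ± 0.277 (SD, n = 4 each). Their log2 changes were -0.70 and -0.58 (limma adjusted p = 2.35e-04 and 6.70e-05).

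The summed level of the 39 genes was 3427 to 3956 FPKM in fed and 3552 to 4049 FPKM in fasted libraries, so it overlapped. Markers of excitatory neurons summed to 1220 to 1435 FPKM fed and 1279 to 1445 FPKM fasted, of inhibitory neurons to 687 to 906 and 733 to 810, and of mature oligodendrocytes to 1536 to 1917 and 1654 to 1970. In those lists the groups overlapped too. Microglial markers summed to 176 to 245 FPKM fed and 158 to 181 FPKM fasted, with 7 of 14 called lower (9 with the replicate block). Oligodendrocyte precursor markers summed to 100.5 to 106.3 and 87.7 to 96.2 FPKM without overlap, with 4 of 10 called lower. The share of all tested genes called lower was 16.3%, and 22.1% with the replicate block. The part of these cells in the changes of shared genes was not tested.

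Within both groups many astrocyte genes were lowest in replicate 4 and highest in replicate 1. Replicate 4 held the lowest value of its group for 24 of 39 members in fed and 23 of 39 in fasted libraries, against 53.5% and 38.7% of all tested genes. Replicate 1 held the highest for 21 and 24 members, against 26.5% and 39.5% of all genes. The median member lay 0.123 under its group mean on the log2 scale in fed replicate 4 and 0.101 under it in fasted replicate 4, while the median of all genes lay 0.063 and 0.031 under. Gja1 was the steadiest member in fed libraries (coefficient of variation 2.39%) and Slc4a4 in fasted ones (1.62%). Id3 was the least steady fed (20.7%) and Agt fasted (23.9%).

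**Figure D5:**
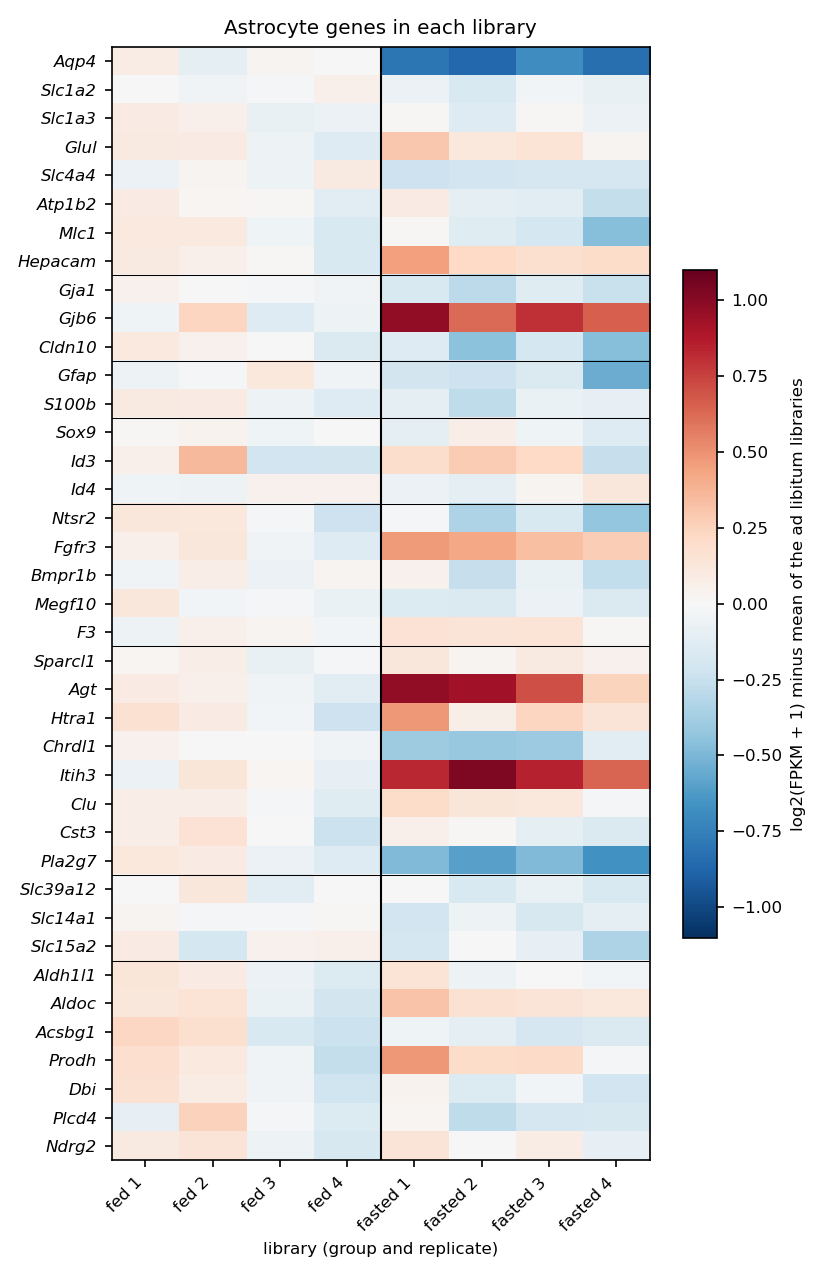
Log2(FPKM + 1) of each astrocyte gene (rows, by role) in each library (columns), as the difference from the mean of the fed libraries, in red where higher and blue where lower. Aqp4 and Pla2g7 are blue and Gjb6, Agt and Itih3 red in all 4 fasted libraries. Replicate 4 is the lowest of its group in 24 of 39 rows fed and 23 of 39 fasted, against 53.5% and 38.7% of all tested genes.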

How the data were processed

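The authors deposited FPKM for 8 libraries in a single table (24883 rows). TopHat and build mm10 are named, per the submitters' processing notes. Which quantifier, annotation, strand setting and TopHat version they used is not given in the sources used here. Where a symbol repeated, the row with the highest mean was used. Coordinates, GC content and transcript lengths came from GENCODE M21 (GRCm38, the assembly of mm10), matched by symbol for 23284 of 24344 symbols, and promoters from RefSeq (GRCm38.p6).

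Genes with at least 1 FPKM in at least 4 libraries were compared, fasted against ad libitum, on log2(FPKM + 1) with limma (version 3.58.1, R 4.3.3), with trend and robust estimation and Benjamini-Hochberg adjustment over 12377 genes. This scale understates changes of low genes. Tables and figures used Python 3.11.15, pandas 2.3.3 and matplotlib 3.10.9. Depth was estimated from FPKM times length in 4105 genes with a single transcript, with 58 to 89 genes at the step taken as 1 fragment in a fixed search range, so it is uncertain.

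The members and lists were chosen with earlier results of these data known. Per-library values are given for every called member and for Aqp4, Gfap, Gja1, Slc1a2, Slc1a3, Aldh1l1, Glul, S100b and Sox9. From each other list up to 4 called genes with the smallest p are named, or 2 where none was called, and some of these genes are not reported here. Genes named beyond these rules, such as Dmd and Dag1, the markers Lcn2, Timp1 and C3, and Slc17a7, were chosen after their values were seen.

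Replicate numbers are shared between the groups. Deviations of same-numbered libraries from their group means correlated at 0.574, 0.496, 0.382 and 0.523 over all tested genes, all above the bound of 0.1, so the fit with the number as a block is given beside results whose call it changes, and the main fit has no block. No label says what a number marks. In sex-linked transcripts replicates 1, 2 and 4 matched between the groups, and replicate 3 did not. Over 11155 autosomal protein-coding genes the correlations were lower, at 0.335, 0.193, 0.076 and 0.371. Replicate 3 then misses the bound, as replicates 2 and 3 do over the 39 members (0.35, -0.012, 0.088 and 0.365). Alternatives varied the pseudocount, filter, scaling, offsets, block, moderation and libraries. The fit was also run on simulated data with independent noise in each gene and 200 of 12377 genes changed. It recovered 93.5% of 1.5-fold and 99.5% of 2-fold changes, with 11 and 8 false calls. With no gene changed it gave 0 calls. Those simulated libraries did not vary together by replicate number or scale, so the run cannot tell how such variation affects the calls.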

Additional observations from a re-analysis of the deposited data

Results flagged for a closer look

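In 7 of 78 groups of 4 libraries, 1 library stood apart from the others by more than Dixon's 95% critical value allows, where chance flags about 1 in 20. Hepacam was at 41.9 FPKM in fasted replicate 1 against 34.3 to 35.5 in the other fasted libraries. Gfap was at 39.1 FPKM in ad libitum replicate 3 against 34.7 to 35.4. Chrdl1 was at 4.90 FPKM in fasted replicate 4 against 3.81 to 3.89. Among genes that did not pass, S100b was at 28.4 FPKM in fasted replicate 2, F3 at 19.0 in fasted replicate 4, Megf10 at 2.65 in fasted replicate 3 and Slc15a2 at 4.66 in ad libitum replicate 2. No library was flagged in more than 2 of these genes.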

How the results depend on the processing

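Aqp4, Pla2g7, Itih3, Gjb6, Agt and Fgfr3 were called in the same direction under every alternative run. The 5 members called higher became 10 with median-ratio scaling, 9 with equal-sum scaling, 10 with quantile scaling, 10 with GC and length offsets, 10 with the replicate block, 12 with the replicate block and offsets together, and 11 with offsets from mean GC and median length. That last alternative, and leaving out ad libitum replicates 2 and 3 together, were added after the data were seen, and the latter left 2 members called lower. Over all genes, 1183 called higher became 1792 with quantile scaling, 2037 with GC and length offsets, 2551 with the replicate block and these offsets, 1912 with the added offsets, and 516 higher and 632 lower without the 2 libraries. The cause of these shifts was not tested. Leaving out 1 library at a time gave 4 to 5 members higher and 5 to 9 lower, 841 to 1196 genes higher and 1406 to 2572 lower, and a median member change of -0.103 to -0.049. The FPKM total differed by -27358.5 (exact two-sided permutation test, p = 0.257) and by -43152.0 to -7638.6 without 1 library, with p = 0.0286 without ad libitum replicate 4. That total includes genes that were not tested, among them the abundant microRNA genes. Over tested genes the sum averaged 270731 FPKM fed (250442 to 281577) and 267168 FPKM fasted (253564 to 278549).

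Changes close to 0 flipped sign. Id4 was at 0.021, 0.011, 0.022 and 0.032 with the median-ratio, equal-sum and quantile scalings and GC and length offsets, 0.032 with the replicate block and offsets and 0.033 with the added offsets. Cst3 was at 0.009 with GC and length offsets, with and without the replicate block, and 0.029 without the 2 libraries. Leaving out 1 library at a time gave -0.050 to 0.028 for Id4, -0.128 to 0.004 for Cst3, -0.033 to 0.062 for Aldh1l1 and -0.024 to 0.082 for Ndrg2.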
